A study of Homo sapiens with 6 samples.

Results

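The IP3 receptors and the store-operated calcium entry genes were read out in HCC1806-HM3 cells with and without knockdown of MSLN, which encodes mesothelin, a surface protein held in the membrane by a lipid anchor. The set was chosen by gene symbol and holds 10 of the 17860 genes listed: the IP3 receptors ITPR1, ITPR2 and ITPR3, the store sensors STIM1 and STIM2, the channel subunits ORAI1, ORAI2 and ORAI3, and the SERCA pumps ATP2A2 and ATP2A3. ITPR3 was picked because its reads were lower in the knockdown samples, so its values and every sum or share that contains it are given as a description, with no test. All 10 genes were found, had a value in every sample and passed the filter on low counts.

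HCC1806 is a triple-negative breast cancer line that the labels describe as human breast squamous cell carcinoma, and HM3 is a liver-metastatic derivative obtained by repeated fat pad injection and recovery from the liver of nude mice. Poly(A) RNA was sequenced from 3 samples with a control shRNA (shNC, genotype Control) and 3 samples with an shRNA against MSLN (shMSLN, genotype MSLN knockdown). Both groups were grown in the same medium, and both carry a lentiviral shRNA vector with drug selection, so each group is a transduced cell pool. The labels do not say that samples of a group came from separate cultures, so p-values measure only the spread between these samples, which may be technical.

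When a receptor at the plasma membrane activates phospholipase C, the enzyme releases inositol trisphosphate (IP3), which opens IP3 receptors in the endoplasmic reticulum (ER) and lets stored calcium into the cytosol. STIM proteins sense the emptied store from within the ER membrane and open ORAI channels at the cell surface, and SERCA pumps refill the ER. In epithelial cells ITPR3 is known for calcium release near the apical side and for passing calcium from the ER to mitochondria.

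The study's methods list a pair of shRNA targets in human MSLN and do not name which of them the sequenced cells carried. They are shown with the longest run of bases they share with any ITPR3 transcript in capitals, because ITPR3 is the gene of the set that was lower in the knockdown.
shRNA1: tggccAACCCACCtaacattt
shRNA2: cTGGACGTCctaaagcataaa
Both runs were 8 bases long. A run of at least this length occurred in 49.1% of 19669 protein-coding genes for shRNA1 and in 36% for shRNA2. Against MSLN itself, 21 of 21 bases matched. Over the 10 genes of the set the longest runs were between 7 and 9 bases.

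ITPR3 lies on the plus strand at chr6:33620365-33696574 (GRCh38, GENCODE 29). The 250 bases before its RefSeq start (GRCh38.p14, chr6:33621072-33621321, plus strand) are printed for the gene the values turn on, beside the same stretch of its paralog ITPR1 (chr3:4493098-4493347, plus strand), whose level overlapped between the groups. The RefSeq start used for ITPR3 and the stretch before it lie within the GENCODE span of the gene. The ITPR1 stretch ends beside its GENCODE start (4493345), so the stretches are placed differently against GENCODE. Capitals mark GC boxes, the letters GGGCGG on either strand.
ITPR3: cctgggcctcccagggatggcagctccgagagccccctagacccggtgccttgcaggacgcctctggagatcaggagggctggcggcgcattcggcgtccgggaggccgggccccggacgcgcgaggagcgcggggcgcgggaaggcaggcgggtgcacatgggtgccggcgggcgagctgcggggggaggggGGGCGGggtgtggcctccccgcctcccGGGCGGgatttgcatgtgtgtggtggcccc
ITPR1: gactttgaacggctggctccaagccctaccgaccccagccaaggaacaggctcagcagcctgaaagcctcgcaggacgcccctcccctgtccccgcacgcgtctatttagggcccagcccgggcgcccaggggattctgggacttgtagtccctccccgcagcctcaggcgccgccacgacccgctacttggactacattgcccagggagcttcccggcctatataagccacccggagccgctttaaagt
The ITPR3 stretch held 2 GC boxes, starting 57 and 30 bases before the start, whereas the ITPR1 stretch held 0. GC boxes were not particular to ITPR3. They were also found before STIM1 (8 in the first of its stretches), STIM2 (2), ORAI2 (2) and ATP2A2 (0 and 4 in its stretches). None of these genes passed the test below, and the ORAI3 stretch held 0. A GC box occurred in 42.3% of the 27305 promoter stretches of this length. GC content was 76.8% for ITPR3 and 64.8% for ITPR1, against a median of 58.0% over all stretches, and CpG numbered 26 and 17 against a median of 11. The ETS core CCGGAA, the E-box CACGTG, the CRE TGACGTCA, the TATA box TATAAA and the NFAT core GGAAA, searched on both strands, had no exact match in either stretch, and 14.8%, 6.49%, 1.77%, 11.1% and 56% of all stretches held them. Only these exact letters were searched. A variant such as the letters TATATAAG in the ITPR1 stretch was not counted, so a TATA box there is not excluded. Promoter stretches were at hand for 7 of the 10 genes. ITPR2, ORAI1 and ATP2A3 had no entry.

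Total estimated counts per sample were between 17507837 and 18512135. In the knockdown samples MSLN fell to 15.9% of the control, from 228 ± 2.43 to 36.2 ± 0.895 CPM (counts per 1000000 reads of a library, mean ± SD, n = 3). The shMSLN columns stood apart in their number format: among genes above 100 reads, 47.8% of the values in shMSLN replicate 2 and 47.9% in shMSLN replicate 3 were whole numbers, against 3.11% to 6.64% in the other 4 samples. Results for the set are therefore also given for shMSLN replicate 1 alone against the 3 shNC samples, an alternative chosen after seeing the data. The 6 basal and squamous markers were all above 1 TPM (transcripts scaled for gene length and depth), from KRT14 at 4.78 TPM to KRT5 at 2228 TPM in shNC. Their summed level was 2838 to 3101 TPM in shNC and 2451 to 2490 TPM in shMSLN. KRT5 (2228 and 1759 TPM), KRT6A (138 and 69.1 TPM) and TP63 (186.4 and 162.5 TPM) were lower in shMSLN. KRT14 (4.78 and 5.51 TPM), KRT17 (288 and 330 TPM) and EGFR (123 and 143 TPM) were higher, so the list did not move 1 way. The hormone receptor and HER2 luminal list summed to 333.9 to 373.0 TPM in shNC and 351.5 to 355.7 TPM in shMSLN. It was led by GATA3 (209 and 218 TPM). Leukocyte markers summed to 36.8 to 41.4 TPM in shNC and 37.2 to 39.0 TPM in shMSLN, led by CD68 (31.6 and 29.6 TPM). Endothelial markers summed to 3.42 to 3.97 TPM in shNC and 3.61 to 4.51 TPM in shMSLN. The 5 hepatocyte markers were each at or below 1 TPM. Of the fibroblast list, COL3A1 and DCN were at or below 1 TPM. Its summed level was 74.3 to 77.0 TPM in shNC and 132.8 to 135.0 TPM in shMSLN, led by LUM (lumican, 49.5 and 105 TPM). The part of any of these marker lists in the results below was not tested.

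Among the IP3 receptors, the ITPR3 level in shMSLN was 56.3% of that in shNC, while ITPR1 and ITPR2 overlapped between the groups. CPM values here were scaled between libraries with TMM. ITPR3 stood at 197, 195 and 188 CPM in shNC replicates 1 to 3 and at 108, 109 and 110 CPM in shMSLN replicates 1 to 3. The groups did not overlap, and the lowest shNC sample stood well above the highest shMSLN sample. Mean levels were 193 ± 4.67 and 109 ± 1.24 CPM (SD, n = 3), a log2 fold change of -0.83. The reads behind these values numbered 3383 to 3607 in shNC and 1946 to 2002 in shMSLN. Of the 14552 genes tested, 164 had a lower log2 fold change than ITPR3. With shMSLN replicate 1 alone the log2 fold change was -0.84, and without that replicate it was -0.82. ITPR3 shares 10.4% of its exonic bases with UQCC2, a gene on the opposite strand, and whether the counting used strand is not given in the sources used here. UQCC2 itself was at 26.4 ± 2.13 CPM in shNC and 26.1 ± 0.466 CPM in shMSLN (SD, n = 3). In bulk RNA, fewer cells with a transcript and less of it per cell cannot be told apart.

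**Figure D1:**
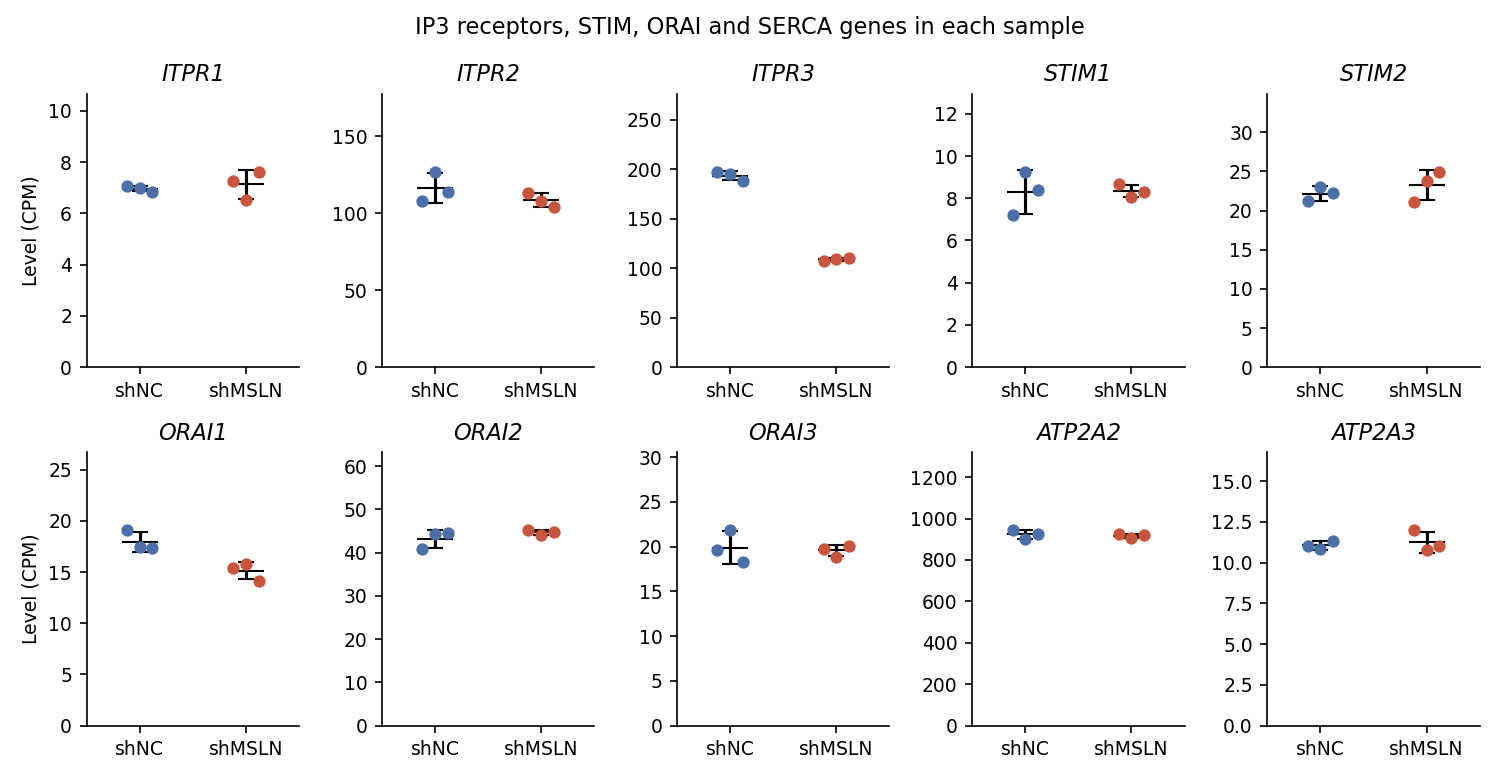
Each panel plots the level of 1 gene in CPM (linear axis from 0) in the 3 shNC and 3 shMSLN samples, as points with a bar for the mean and an error bar for the SD. ITPR3, which was picked for its fall, and ORAI1 are the 2 of 10 panels in which the groups do not overlap, both lower in shMSLN. Over all genes tested the groups did not overlap for 46.2% in either direction and were lower in shMSLN for 23.5%.

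ITPR2, the receptor isoform with the highest affinity for IP3, did not pass the test. Its level was 108, 127 and 114 CPM in the shNC samples and 113, 108 and 104 CPM in the shMSLN samples. The groups overlapped, with the highest value in shNC replicate 2 and the lowest in shMSLN replicate 3. The log2 fold change was -0.10 (SE 0.06, 95% interval -0.22 to 0.02, adjusted p = 0.183, edgeR's quasi-likelihood test). Leaving out shNC replicate 1 gave -0.15, which passed the test (adjusted p = 0.0144, edgeR), and over all settings its adjusted p ranged from 0.0144 to 0.838. ITPR1, the isoform best known from neurons, was the least abundant receptor here at 7.06, 6.98 and 6.85 CPM in shNC and 7.26, 6.51 and 7.62 CPM in shMSLN. Its shMSLN samples lay on both sides of the shNC samples. The log2 fold change of ITPR1 was 0.03 (SE 0.11, 95% interval -0.20 to 0.27, adjusted p = 0.843, edgeR), with only 116 to 135 reads per sample behind it.

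Because levels of different genes can be set beside each other only per transcript length, the makeup of the receptors was taken from the deposited TPM values. ITPR3 made up 68.9%, 65.2% and 66.9% of the summed IP3 receptor transcripts in shNC and 53.3%, 55.1% and 55.8% in shMSLN. Every shMSLN sample had a lower ITPR3 share than every shNC sample, and the means differed by -12.3 percentage points (67.0% ± 1.84 and 54.7% ± 1.29, SD, n = 3). The share of ITPR2 was 30.8% ± 1.90 in shNC and 42.0% ± 1.41 in shMSLN, and that of ITPR1 was 2.19% ± 0.0657 and 3.27% ± 0.273. These shares contain ITPR3 and were not tested. The sum of the 3 receptors was 71.2 ± 3.68 TPM in shNC and 50.3 ± 0.326 TPM in shMSLN, whereas ITPR1 and ITPR2 alone summed to 23.5 ± 2.43 and 22.8 ± 0.800 TPM (exact two-sided permutation p = 0.8, n = 3 per group, where 0.1 is the smallest p the design allows). The log2 ratio of summed IP3 receptors to summed SERCA pumps was -2.39 ± 0.0707 in shNC and -2.90 ± 0.0063 in shMSLN.

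**Figure D2:**
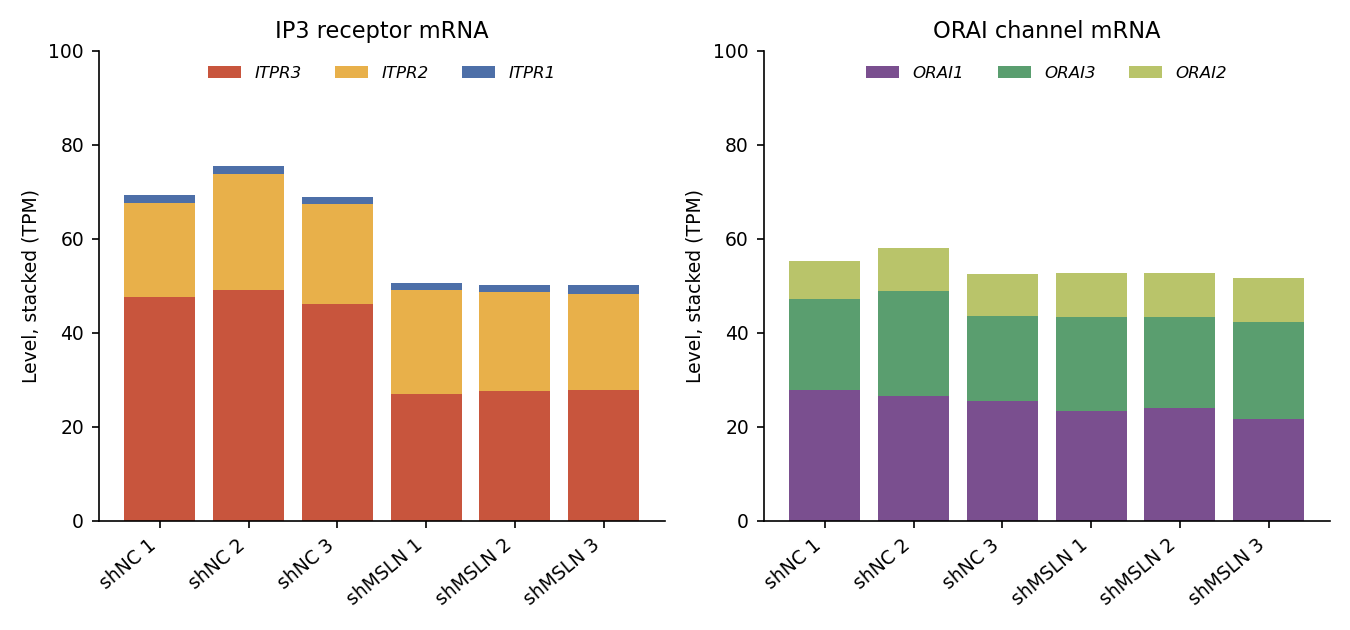
Stacked bars show the TPM of each gene (vertical axis, linear from 0) in each of the 6 samples, on the left for the IP3 receptors and on the right for the ORAI subunits. The ITPR3 segment shrinks from a mean of 47.7 TPM in shNC to 27.6 TPM in shMSLN, whereas the ORAI stacks sum to 55.3 ± 2.69 and 52.3 ± 0.537 TPM (SD, n = 3).

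Neither STIM gene passed the test. STIM1, the main sensor of a deeply emptied store, was at 7.22, 9.26 and 8.40 CPM in shNC and at 8.65, 8.08 and 8.30 CPM in shMSLN. The shMSLN samples lay within the range of the shNC samples, and the log2 fold change was 0.01 (SE 0.11, 95% interval -0.23 to 0.25, adjusted p = 0.956, edgeR). STIM2, which responds to smaller losses of ER calcium, was at 21.2, 23.1 and 22.2 CPM in shNC and 21.1, 23.7 and 25.0 CPM in shMSLN. The groups overlapped here too, with a log2 fold change of 0.07 (SE 0.07, 95% interval -0.09 to 0.23, adjusted p = 0.497, edgeR). The log2 ratio of STIM1 to STIM2 in TPM was -0.97 ± 0.127 in shNC and -1.03 ± 0.165 in shMSLN (exact permutation p = 0.9, n = 3 per group).

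Of the ORAI genes, ORAI1 fell and ORAI2 and ORAI3 did not pass the test. ORAI1, which forms the pore of the classical store-operated channel, was at 19.1, 17.4 and 17.4 CPM in shNC and 15.4, 15.8 and 14.2 CPM in shMSLN. All shMSLN samples lay below all shNC samples, and shNC replicate 1 was the highest and shMSLN replicate 3 the lowest. The level of ORAI1 was 18.0 ± 0.990 CPM in shNC and 15.1 ± 0.836 CPM in shMSLN (SD, n = 3), a log2 fold change of -0.25 (SE 0.08, 95% interval -0.41 to -0.08, adjusted p = 0.0211, edgeR's quasi-likelihood test). The call for ORAI1 was lost without shNC replicate 1 (-0.20, adjusted p = 0.0601, edgeR), without shMSLN replicate 3 (-0.20, adjusted p = 0.103, edgeR), with DESeq2 (-0.25, adjusted p = 0.0849) and with shMSLN replicate 1 alone (-0.22, adjusted p = 0.267, edgeR). It rested on 251 to 349 reads per sample.

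ORAI2 was at 40.8, 44.2 and 44.6 CPM in shNC and 45.2, 44.1 and 44.9 CPM in shMSLN. The groups overlapped and shNC replicate 1 was the lowest of the 6, with a log2 fold change of 0.05 (SE 0.05, 95% interval -0.06 to 0.16, adjusted p = 0.487, edgeR). ORAI3, a subunit found only in mammals, was at 19.6, 21.8 and 18.3 CPM in shNC and 19.8, 18.8 and 20.1 CPM in shMSLN. Its shMSLN samples lay inside the shNC range, and the log2 fold change was -0.02 (SE 0.08, 95% interval -0.19 to 0.14, adjusted p = 0.844, edgeR). ORAI3 shares 52.9% of its exonic bases with AC135048.1, a transcript of the same strand that was not analysed here, and ORAI2 shares 5.26% with ALKBH4. Within the summed ORAI transcripts, ORAI1 took 48.3% ± 2.42 in shNC and 44.0% ± 1.93 in shMSLN, ORAI2 15.8% ± 1.19 and 17.7% ± 0.320, and ORAI3 35.9% ± 2.28 and 38.3% ± 1.61. The ORAI2 share was higher in every shMSLN sample (17.5% to 18.1%) than in every shNC sample (14.7% to 17.1%), whereas the shares of ORAI1 and ORAI3 overlapped between the groups. Exact permutation tests gave p = 0.2, 0.1 and 0.3 (n = 3 per group, adjusted p = 0.36 each over 6 shares and ratios), and since 0.1 is the smallest p possible, they could not pass the threshold.

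Neither SERCA pump passed the test. ATP2A2, the pump found in nearly every cell, was at 944, 902 and 925 CPM in shNC and 926, 904 and 918 CPM in shMSLN. The shMSLN samples lay within the shNC range, and the log2 fold change was -0.01 (SE 0.03, 95% interval -0.08 to 0.06, adjusted p = 0.816, edgeR). ATP2A3, a pump of blood cells and some epithelia, was at 11.0, 10.8 and 11.4 CPM in shNC and 12.0, 10.8 and 11.0 CPM in shMSLN. Its groups overlapped, with a log2 fold change of 0.03 (SE 0.09, 95% interval -0.16 to 0.21, adjusted p = 0.841, edgeR). The log2 ratio of ATP2A2 to ATP2A3 in TPM was 6.15 ± 0.0401 in shNC and 6.11 ± 0.0652 in shMSLN (exact permutation p = 0.3, n = 3 per group).

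Of the 9 genes other than ITPR3, 1 was called (11.1%), where 34.6% of all genes tested were called in either direction at an adjusted p below 0.05 (edgeR) and 18.0% were called lower. Counting ITPR3, 2 of the 10 genes had groups that did not overlap, both lower in shMSLN, against 46.2% of all genes in either direction, 23.5% lower and 22.7% higher. ITPR3 is the gene the set was picked for, so nothing is read from its place in that count. The median log2 fold change of the 9 genes was 0.01, and that of all genes tested was 0.00. Intervals were widest for ITPR1 and STIM1, which had the fewest reads.

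**Figure D3:**
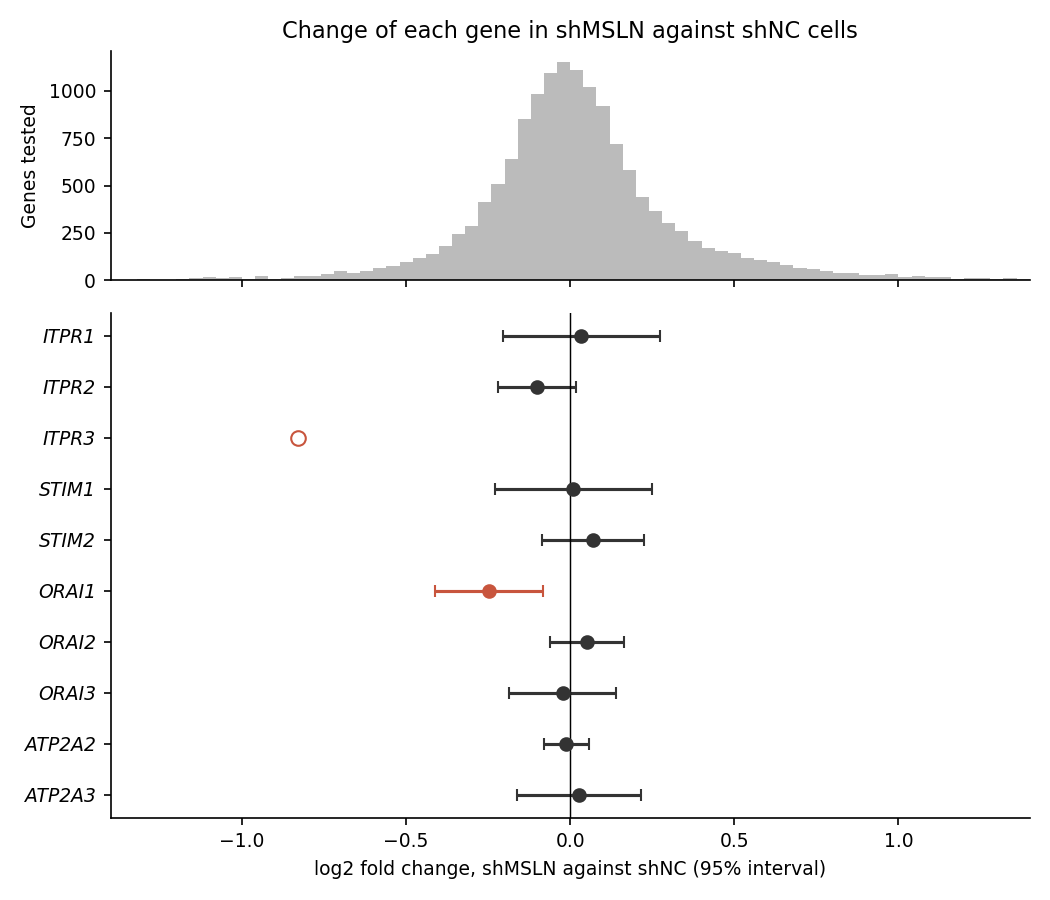
The upper panel shows the histogram of log2 fold changes (shMSLN against shNC) of the genes tested that fall within the axis, and the lower panel the log2 fold change of each gene of the set with its 95% interval, except ITPR3, drawn as an open point with no interval because it was picked for its fall. ITPR3 lies at -0.83, the interval of ORAI1 runs from -0.41 to -0.08, and the intervals of the other 8 genes include 0.

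Set in order of TPM, the genes had the same order in both groups. In shNC the levels ran from ATP2A2 (367 TPM), ITPR3 (47.7), ORAI1 (26.7), ITPR2 (22.0), ORAI3 (19.9), STIM2 (9.62), ORAI2 (8.74), ATP2A3 (5.15), STIM1 (4.92) down to ITPR1 (1.56). The shNC ranges of ITPR2 and ORAI3, of STIM2 and ORAI2, and of ATP2A3 and STIM1 overlapped, so these neighbours did not differ beyond their spread. ITPR3 remained in second place in shMSLN at 27.6 ± 0.477 TPM, above ORAI1 at 23.0 ± 1.22 TPM, but the mean ratio between them was 1.79 in shNC and 1.20 in shMSLN. In shMSLN the ranges of ORAI1 and ITPR2 also overlapped. The mean ratio of ATP2A2 to ITPR3 was 7.70 in shNC and 13.5 in shMSLN.

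Beyond the set, 142 genes of the calcium pathway were placed in 8 lists by role, and 118 of them were tested. Of these, 28 rose and 33 fell, with a median log2 fold change of -0.05. This is 51.7% called against 34.6% of all genes (16.6% higher and 18.0% lower). The lists were chosen with earlier results of these data known, so nothing is read from the difference between these shares. With shMSLN replicate 1 alone, 12 of 119 list genes were called (10.1%) against 1797 of 14875 genes (12.1%), so the higher share of calls in the lists was not seen in that fit. Of the 21 called genes that are named below by the rule, 12 lost their call there.

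In the list of IP3 production, which holds phospholipase C enzymes and the G protein subunits that activate them, 2 of 14 tested genes rose and 6 fell, with a median log2 fold change of -0.14. PLCG2, a phospholipase C switched on by tyrosine kinases, fell from 15.8 ± 1.11 to 11.6 ± 0.764 CPM (log2 fold change -0.44, adjusted p = 0.00111, edgeR). GNA15, a G protein subunit of the Gq class, fell from 52.9 ± 2.97 to 40.8 ± 2.01 CPM (-0.37, adjusted p = 0.000148, edgeR). GNAQ, the most abundant gene of the list, rose from 140 ± 11.1 to 156 ± 2.10 CPM (0.15, adjusted p = 0.0262, edgeR). Its call was lost when any sample but shNC replicate 2 was left out (0.10 to 0.16, adjusted p = 0.056 to 0.0918, edgeR) and with limma on TPM (adjusted p = 0.135 and 0.133). The other gene that rose was PLCL2, a phospholipase C relative without catalytic activity, at a log2 fold change of 0.32. In the list of IP3 removal, 1 of 9 genes rose and 5 fell, with a median of -0.20. INPP1, a phosphatase acting on breakdown products of IP3, fell from 63.2 ± 2.01 to 44.2 ± 1.98 CPM (-0.52, adjusted p = 2.21e-06, edgeR), and IPMK, a kinase that adds phosphates to IP3, fell from 26.9 ± 3.75 to 19.4 ± 1.16 CPM (-0.47, adjusted p = 0.00107, edgeR). INPP5A, the phosphatase that inactivates IP3, was the gene that rose (0.27, adjusted p = 0.00105, edgeR).

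Among partners and regulators of the IP3 receptors, 4 of 19 tested genes rose and 7 fell, with a median of -0.09. BCL2, a survival protein that also binds IP3 receptors, rose from 15.6 ± 2.76 to 25.7 ± 1.48 CPM (log2 fold change 0.72, adjusted p = 5.51e-05, edgeR). Its relatives in the list did not rise. MCL1 (-0.16, adjusted p = 0.00901, edgeR) and BOK (-0.34, adjusted p = 0.0143, edgeR) fell, and BCL2L1 (-0.10, adjusted p = 0.0593, edgeR) did not pass the test. MCL1 and BCL2L1 stood higher than BCL2, at 266 and 239 CPM in shNC. ITPRIP, an IP3 receptor-interacting protein, fell from 26.8 ± 1.22 to 20.0 ± 1.31 CPM (-0.42, adjusted p = 0.00029, edgeR). CALM2, which encodes calmodulin and is the most abundant of the list, rose from 704 ± 9.52 to 773 ± 7.47 CPM (0.13, adjusted p = 0.00428, edgeR). The other 2 that rose were ERP44 (0.22) and ERLIN1 (0.13), whereas ERLIN2, which acts with ERLIN1 in the breakdown of activated IP3 receptors, fell (-0.24, adjusted p = 0.00109, edgeR).

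Regulators of store-operated entry and TRPC channels gave 3 genes that rose and 2 that fell of 17 tested, a share of 29.4% called, with a median of -0.06. The scaffold gene HOMER3 fell from 19.8 ± 1.94 to 15.2 ± 2.24 CPM (log2 fold change -0.38, adjusted p = 0.00923, edgeR). With shMSLN replicate 1 alone the log2 fold change of HOMER3 was only -0.17. ORMDL3, a regulator of sphingolipid synthesis in the ER, fell from 23.3 ± 2.28 to 20.0 ± 0.912 CPM (-0.22, adjusted p = 0.0406, edgeR). CAV1, the coat protein of caveolae, rose from 1306 ± 3.02 to 1401 ± 13.8 CPM (0.10, adjusted p = 0.0165, edgeR). The call of HOMER3 was lost without shMSLN replicate 2 (-0.28, adjusted p = 0.0601, edgeR), that of CAV1 without shNC replicate 3 or shMSLN replicate 2 or 3 (0.09 to 0.11, adjusted p = 0.0569 to 0.0886, edgeR), and that of ORMDL3 without shNC replicate 1 or shMSLN replicate 2 or 3 (-0.20 to -0.14, adjusted p = 0.121 to 0.153, edgeR). ORMDL3 also lost it with DESeq2 (adjusted p = 0.103), upper-quartile scaling (adjusted p = 0.0738, edgeR) and limma on TPM (adjusted p = 0.0718 and 0.0693). ESYT2, a tether between ER and plasma membrane, also rose (0.16). The remaining call was the channel gene TRPC5 (adjusted p = 0.00557, edgeR), which rested on 0, 6.30 and 2.54 reads in shNC and 16.9, 12.0 and 15.4 reads in shMSLN. TRPC5 passed the filter on low counts only through the shMSLN samples, so no fold is given.

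In the ER store list, 7 of 20 tested genes rose and 5 fell, with a median of 0.01. TMX1, a redox protein that acts on SERCA, fell from 79.1 ± 3.73 to 59.3 ± 3.61 CPM (log2 fold change -0.42, adjusted p = 3.33e-05, edgeR). RYR3, a ryanodine receptor and so another release channel of the ER, rose from 2.10 ± 0.0437 to 3.51 ± 0.0358 CPM (0.74, adjusted p = 0.00357, edgeR). Its level was low, at 0.29 TPM in shNC and 0.50 TPM in shMSLN. It rested on 36.9 to 39.0 reads per sample in shNC and 62.0 to 66.2 in shMSLN. RYR2, a relative of RYR3, rose as well (0.35, adjusted p = 2.34e-05, edgeR). HSP90B1, the most abundant chaperone of the list, fell from 3633 ± 127 to 3323 ± 40.5 CPM (-0.13, adjusted p = 0.00595, edgeR), whereas CALR and PDIA3, which code for calcium-binding or calcium-associated ER proteins, rose (0.12 and 0.17). With limma on log2(TPM + 1) and log2(TPM + 0.1) the calls of RYR3 (0.22 and 0.62, adjusted p = 0.0873 and 0.0633) and HSP90B1 (-0.09 in both, adjusted p = 0.0551 and 0.0516) were lost. Both also lost their call with shMSLN replicate 1 alone, where the log2 fold change was 0.76 for RYR3 and -0.14 for HSP90B1.

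Of the 12 genes of mitochondrial calcium handling, which are not all uptake genes, 2 rose and 3 fell, with a median of -0.03. SLC8B1, the mitochondrial sodium-calcium exchanger, fell from 50.3 ± 1.36 to 41.3 ± 3.89 CPM (log2 fold change -0.28, adjusted p = 0.00288, edgeR) and MCUR1, a regulator of the uptake channel, fell from 29.6 ± 2.15 to 24.5 ± 0.665 CPM (-0.27, adjusted p = 0.00539, edgeR), a call lost with limma on TPM (adjusted p = 0.0778 and 0.0757). VDAC2 also fell (-0.20), while MCU, the pore of the uptake channel, rose (0.16). HSPA9, the most abundant gene of the list, was at 303 ± 10.9 and 284 ± 7.75 CPM (-0.09, adjusted p = 0.0833, edgeR), and passed the test without shNC replicate 2 (-0.12, adjusted p = 0.0228, edgeR).

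Calcium extrusion was the list in which all called genes had the same sign: 5 of 8 tested rose and 0 fell, with a median of 0.22. Over all genes tested, 16.6% were called higher and 18.0% lower. It was the list with the fewest genes tested. BSG, which encodes basigin, a partner of plasma membrane calcium pumps, rose from 431 ± 33.5 to 589 ± 24.1 CPM (log2 fold change 0.45, adjusted p = 6.94e-06, edgeR). SLC24A1, a sodium-calcium exchanger that also carries potassium, rose from 16.4 ± 0.988 to 21.2 ± 0.814 CPM (0.37, adjusted p = 0.00108, edgeR). The others were SLC8A1 (0.28), the pump gene ATP2B4 (0.16) and the Golgi pump gene ATP2C1 (0.15). In the calcineurin-NFAT and calmodulin kinase list, 4 of 19 tested genes rose and 5 fell, with a median of -0.01. CABIN1, an inhibitor of calcineurin, rose from 61.2 ± 1.62 to 79.5 ± 3.52 CPM (0.38, adjusted p = 2.69e-05, edgeR) and CAMK4, a calmodulin-dependent kinase, rose from 7.13 ± 0.450 to 9.26 ± 0.496 CPM (0.38, adjusted p = 0.0116, edgeR). PPP3R1, the regulatory subunit of calcineurin, fell from 98.2 ± 5.08 to 87.7 ± 1.32 CPM (-0.16, adjusted p = 0.0122, edgeR). CAMK4 lost its call without shMSLN replicate 3 (0.33, adjusted p = 0.0586, edgeR), with DESeq2 (adjusted p = 0.0501) and with limma on TPM (adjusted p = 0.0623 and 0.0812). PPP3R1 lost it without shNC replicate 3 (-0.13, adjusted p = 0.0799, edgeR) or shMSLN replicate 3 (-0.16, adjusted p = 0.0553, edgeR) and with limma on TPM (adjusted p = 0.0747 and 0.075).

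**Figure D4:**
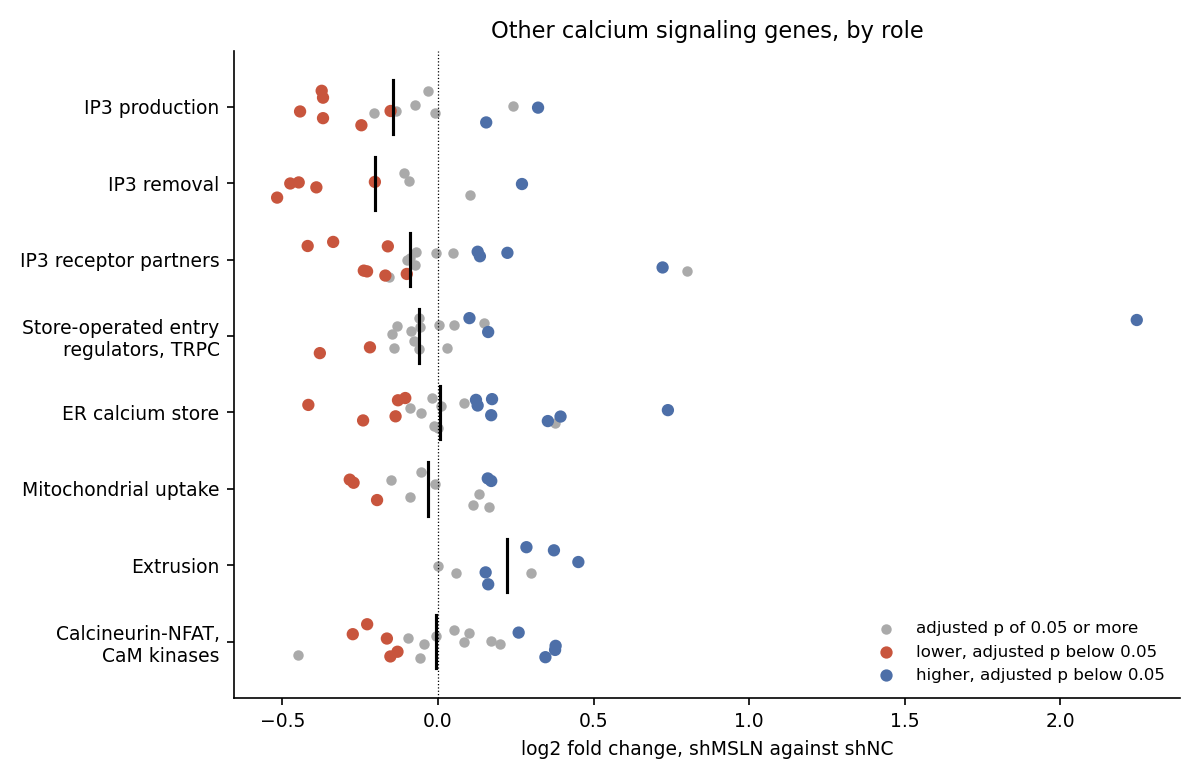
Each point is the log2 fold change (shMSLN against shNC, horizontal axis) of 1 tested gene of the 8 pathway lists, coloured by direction where its adjusted p was below 0.05 (edgeR) and grey otherwise, with a bar for the list's median. The extrusion list has its median at 0.22 and no called gene below 0, whereas the IP3 removal list has its median at -0.20.

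The genes whose pattern over the 6 samples was most like that of ITPR3 were found by the root mean square difference in log2(CPM + 1), centred on each gene's mean, among 13761 genes. They were PKP1 (a desmosome protein, difference 0.0290), FAM20C (a kinase of secreted proteins, 0.0425), ABHD5 (an activator of fat breakdown, 0.0484), CHP2 (a calcium-binding relative of calcineurin's regulatory subunit, 0.0485) and PMEPA1 (a membrane protein induced by TGF-beta, 0.0496). PKP1 was at 124 ± 1.46 CPM in shNC and 69.6 ± 0.340 CPM in shMSLN, and CHP2 at 10.5 ± 0.154 and 5.14 ± 0.199 CPM. These genes were chosen for the resemblance and were not tested.

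**Figure D5:**
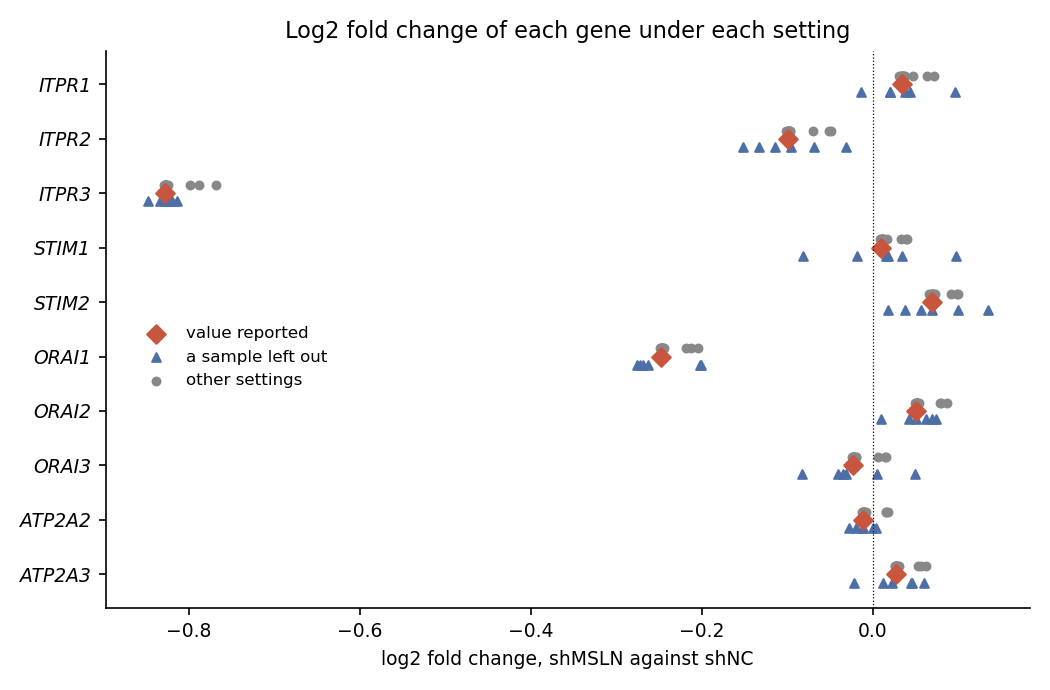
Points give the log2 fold change (shMSLN against shNC) of each gene of the set as a diamond for the value reported, triangles with a sample left out and circles for other planned settings. ITPR3 stays between -0.85 and -0.77 and ORAI1 between -0.28 and -0.20, while the other 8 genes lie between -0.15 and 0.13.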

How the data were processed

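RNA-Seq of 3 shNC and 3 shMSLN samples was examined. Groups and replicate numbers were taken from the sample titles. The authors deposited 1 table of 17860 genes with estimated counts, FPKM and TPM for every sample. The estimated counts in the deposited table are unscaled, whereas the deposited FPKM and TPM values are scaled for length and depth. Per the labels the genome build was GRCh38.p13, as the submitters' processing notes name it. The aligner, quantifier, annotation and strand setting are not given in the sources used here. Error marks stand in place of values for 1287 genes, in the shMSLN columns only, and the 16573 genes with all values were kept. In shMSLN replicate 1 there were 1103 marks and 0 zeros, and in replicates 2 and 3 695 marks each. The shNC samples had 1094 to 1150 zeros and no marks, so genes at 0 in shMSLN may have been dropped. With marks read as 0 counts, 5019 genes were called (edgeR).

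After rounding, the counts were fitted in R 4.3.3 by edgeR 4.0.16, with filterByExpr, TMM scaling and the quasi-likelihood test (glmQLFit and glmQLFTest) and without a covariate, with Benjamini-Hochberg adjustment over 14552 genes at a threshold of 0.05. A gene with an adjusted p below it is called. Standard errors and 95% intervals come from the same fit. FPKM was not used, and TPM served to compare genes and, in an alternative, for limma 3.58.1 on log2(TPM + 1) and log2(TPM + 0.1). DESeq2 1.42.0 and limma-voom were alternatives, beside other scalings, filters, a replicate block and leaving out each sample. Ratios were tested with exact two-sided permutation tests. The fit was tested on simulated data.

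The 10 genes and the pathway lists were chosen with earlier results of these data known. Named pathway genes were up to 2 per list with the largest called change at a mean of 1 CPM or more, and the most abundant one. Genes named beyond this rule were chosen after their values were seen. Locations were read from GENCODE 29 and promoter stretches from RefSeq (GRCh38.p14). ERLN, MICU3 and ATP2B3 were not analysed here, and 1 called pathway gene is not reported here by name.

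Same-numbered samples of the groups correlated at 0.165, 0.076 and 0.072 in their deviations from the group means. Not every value was above 0.1, so the numbers were not taken to pair the samples.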

Additional observations from a re-analysis of the deposited data

How the results depend on the processing

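The log2 fold change of ITPR3 was between -0.85 and -0.77 under every setting run. For the 9 other genes, 142 of 162 values kept their direction and side of the threshold. Calls among these 9 genes numbered 1 with edgeR and 0 with DESeq2 (1 at an unadjusted p below 0.05, ORAI1), 0 with shMSLN replicate 1 alone (0 at an unadjusted p below 0.05, edgeR), and 0 to 1 when a replicate was left out, with 0 without shMSLN replicate 3 (1 unadjusted, edgeR). Without shNC replicate 1 the 1 call was ITPR2 in place of ORAI1. Over all genes, 5032 were called, 1797 with shMSLN replicate 1 alone and 3695 to 5399 with a replicate left out, and over the pathway lists 61, 12 and 42 to 61. The fit with that 1 sample assumes that it varies like the shNC samples, and it rests on fewer samples.

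Directions turned only for values that did not pass the test. Leaving out 1 replicate gave ITPR1 -0.0144 to 0.0965, STIM1 -0.0822 to 0.0966, ORAI3 -0.0825 to 0.0497, ATP2A2 -0.0275 to 0.0033 and ATP2A3 -0.0224 to 0.0593. With shMSLN replicate 1 alone STIM2 was -0.0673 and ATP2A2 0.0061, with upper-quartile scaling ORAI3 was 0.0059 and ATP2A2 0.0177, and with limma on log2(TPM + 1) and log2(TPM + 0.1) ORAI3 was 0.0146 and 0.0155 and ATP2A2 0.0148 in both. The cause was not tested. With CPM in place of TPM the difference in share was 3.02 percentage points for ORAI2 (1.90 in TPM) and 0.12 for ORAI3 (2.40 in TPM). The named pathway genes gave 351 of 396 values on the same side of the threshold, with 44 calls lost and 1 gained.

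With a replicate block, 5789 genes, 1 of the 9 genes and 64 pathway genes were called, and every sample correlated best with its own number. This is a hint from the data, not from the design. Depth limits ITPR1, STIM1 and ATP2A3 most.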
